A study of Brassica rapa with 36 samples.

Results

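The genes described here are those whose transcript level was lower in heated than in unheated microspores of Brassica rapa, in the line K2 and in the line 49CX alike. For each gene the counts were scaled to CPM, the count divided by the library's gene counts and expressed per 1e6 and averaged per group. The heat value H was the log2 ratio of heated over unheated microspores after adding 20 CPM to each side. A gene entered when H was at most -1 in each line. This held for 105 of the 47135 gene IDs in the files. H was at most -1 for 1651 genes in K2 and for 185 genes in 49CX. With 5 or 50 CPM added in place of 20, 308 or 46 genes passed both thresholds.

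The series compares K2, described as inducible to androgenesis, with 49CX, described as non-inducible. The 36 libraries form 12 groups of 3. The K2 groups were 2-cell, 4-cell and 8-cell embryos, pollen of the flowering stage, microspores after heat shock, microspores without heat shock, late unicellular microspores and stalk leaf. The 49CX groups were microspores after and without heat shock, late unicellular microspores and stalk leaf. Neither line carries a transgene or an added allele in the labels, which give genotype as the line name alone. How long and how hot the heat shock was, how long the unheated microspores were kept and how many cells entered a library is not stated in these labels. They also do not say whether replicates are separate plants, and a p-value here covers the spread among these samples, technical spread included.

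Microspores are the immature male cells released after meiosis, and each normally divides unequally and matures into a pollen grain. In Brassica, isolated late unicellular microspores can be turned from that course by a heat shock and divide into embryos, a process called androgenesis. Transcripts that rise while a microspore proceeds towards pollen are part of the ordinary gametophytic programme. The files do not pair gene IDs with names, and 0 of the IDs matched the RefSeq gene table, so no role is given to any ID and the groups of genes below are defined by where they are expressed. For the same reason the labelled tissues were not checked against named markers.

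Of the 36 libraries, 34 held gene counts, since replicates 2 and 3 of K2 pollen had no gene with a count. Pollen is therefore 1 library throughout. Gene counts ranged from 6021 to 170479 in embryos, from 85651 to 529458 in microspores and from 213245 to 1179935 in leaf, and pollen held 118317. A floor of 3 counts corresponded to between 5.67 and 35.03 CPM in single microspore libraries, and to as much as 498 CPM in the shallowest embryo library. Reads outside annotated genes made up 62.7% to 64.5% of assignable reads in heated and 79.8% to 80.1% in unheated K2 microspores, and 70.0% to 71.1% in heated and 60.1% to 71.7% in unheated 49CX microspores. The 50 most abundant genes held 4.68% ± 0.526 of gene counts in heated and 11.9% ± 0.154 in unheated K2 microspores (SD, n = 3 each). In 49CX they held 15.7% ± 0.164 in heated and 19.5% ± 0.655 in unheated microspores. These differences moved with the heat comparison, and their part in the heat values was not tested. In bulk samples fewer cells of a type and less RNA per cell cannot be told apart.

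The members were abundant in unheated microspores of either line, and their heated level was a much smaller fraction of the unheated one in K2 than in 49CX. Together they held 0.171% ± 0.0167 of gene counts in heated K2 microspores, against 4.16% ± 0.177 in unheated ones. In 49CX they held 1.82% ± 0.0429 in heated and 4.71% ± 0.0762 in unheated microspores. The shares of the 3 heated K2 libraries were 0.190%, 0.160% and 0.162%, and those of the 3 unheated ones 4.27%, 3.95% and 4.25%. The 3 heated 49CX libraries had 1.78%, 1.86% and 1.82%, and the 3 unheated ones 4.73%, 4.77% and 4.62%. Heated and unheated libraries did not overlap in either line, which the choice of members fixes. These values and the heat values below chose the members and are given as a description, with no test.

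**Figure D1:**
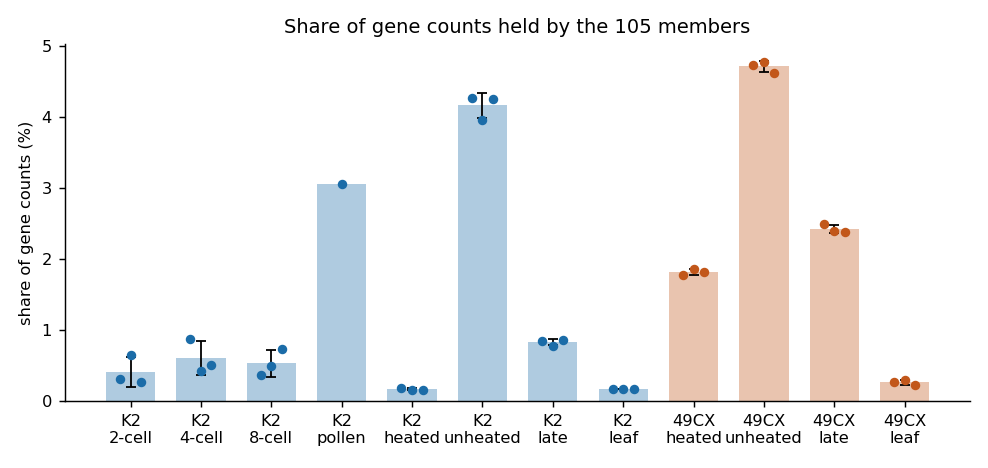
Share of gene counts held by the 105 members (%, vertical axis) in each library (points) of the 12 groups, with the group mean (bar) and SD (error bar); pollen is a single library. The members held 0.171% in heated and 4.16% in unheated K2 microspores, and 1.82% in heated and 4.71% in unheated 49CX microspores.

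The median H over the members was -2.56 in K2, with a range of -7.82 to -1.02. In 49CX the median was -1.16, with a range of -4.04 to -1.001. H was more negative in K2 for 96 of the 105 members. It was at most -3 for 46 members in K2 and for 3 in 49CX. Taken without the added 20 CPM, the median member kept 3.41% of its unheated level in heated K2 microspores and 36.8% in heated 49CX microspores. For the 6585 genes with a mean of at least 20 CPM in the unheated microspores of each line, called eligible genes below, these medians were 86.6% and 94.7%. H was more negative in K2 for 55.4% of eligible genes. It was at most -3 for 3.95% of them in K2 and for 0.0456% in 49CX. Of the members, 15 had 0 counts in all 3 heated K2 libraries and 1 had 0 counts in all 3 heated 49CX libraries. Those are 14.3% and 0.952% of the members, against 2.35% and 0.0607% of eligible genes. Eligible genes did not have to meet the thresholds. The rule itself thus sets the members apart from them in these values, and nothing is read from the gaps.

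Unheated levels of the members were similar in the lines, whereas heated levels were lower in K2. The median CPM of the members was 173 in unheated K2 and 200 in unheated 49CX microspores. In heated microspores it was 5.92 in K2 and 66.5 in 49CX. The mean level was higher in K2 than in 49CX for 45 members in unheated and for 11 members in heated microspores. Those are 42.9% and 10.5% of the members, against 55.4% and 49.7% of eligible genes. The rule used these levels, and eligible genes did not have to meet its thresholds, so nothing is read from the gap to them. Across the members, H of K2 and H of 49CX were related with r = 0.27 (Pearson) and rho = 0.25 (Spearman, n = 105 genes). The same across eligible genes was 0.39 and 0.39 (n = 6585 genes). The rule cut both H values of the members at its thresholds, which limits their spread, and did not cut those of eligible genes. The members' coefficients therefore cannot be set against those of eligible genes, and no conclusion is drawn from them. Genes are not independent replicates, and all points share the same 12 libraries.

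The 49CX threshold decided membership at the edge. The last member inside had an H of -1.001 in 49CX and -3.22 in K2, with 66.5 CPM in heated and 153 CPM in unheated 49CX microspores. The first gene outside had an H of -0.999 in 49CX and -1.49 in K2, with 29.3 CPM in heated and 78.5 CPM in unheated 49CX microspores. For the genes tested across the series, 100 of the 100 members that passed the count filter were called lower by heat in K2, where 31.3% of the 9376 genes tested were so called. In 49CX 97 were called lower, where 4.39% of the genes tested were. The same contrast chose the members, so nothing is read from these counts. The other 5 members did not pass the filter, with 22.5 to 37.9 CPM in unheated K2 and 29.3 to 68.4 CPM in unheated 49CX microspores.

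**Figure D2:**
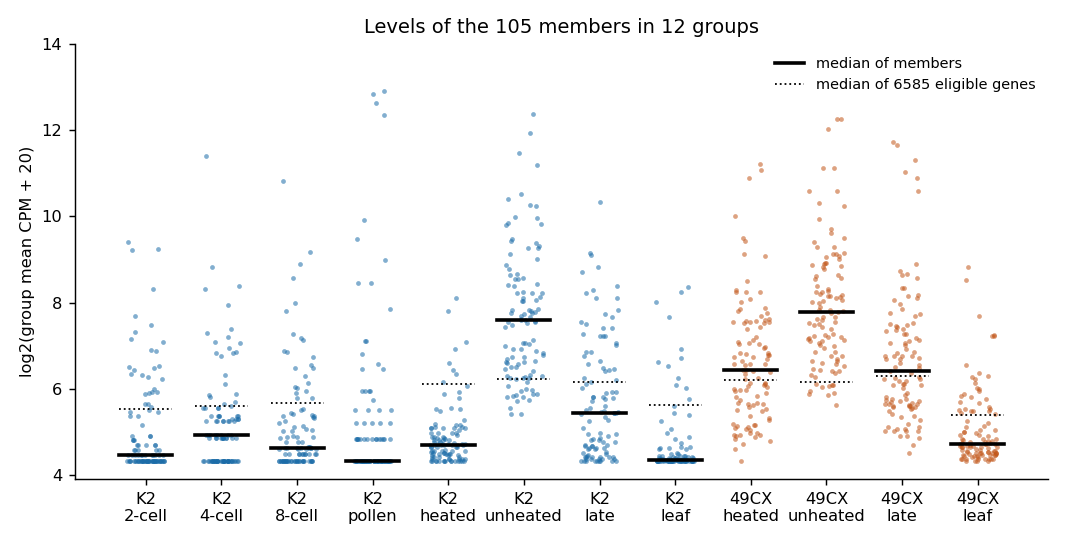
Level of each member (points, log2 of group mean CPM plus 20, vertical axis) in the 12 groups, with the median of the members (thick line) and of the 6585 eligible genes (dotted line). In CPM, the member medians were 5.92 in heated and 173 in unheated K2 microspores, and 66.5 in heated and 200 in unheated 49CX microspores.

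The most negative heat values shared by the lines were those of BraC08g023950.1 and BraC01g047070.1. BraC08g023950.1 had 2.16, 4.80 and 0 CPM in heated K2 microspores, against 295, 384 and 377 CPM in unheated ones. In 49CX it had 6.81, 0 and 18.5 CPM in heated microspores, against 513, 518 and 318 CPM in unheated ones. Heated libraries lay far below unheated ones in each line, and the late microspores were also low, with 0, 9.23 and 4.61 CPM in K2 and 44.6, 35.03 and 79.3 CPM in 49CX. Its mean leaf level was 1.003 CPM in K2 and 5.29 CPM in 49CX, and the pollen library, where a floor of 3 counts is 25.4 CPM, held none of its reads.

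BraC01g047070.1 had 6.48, 14.41 and 0 CPM in heated K2 microspores, against 767, 617 and 567 CPM in unheated ones. In 49CX it had 27.2, 37.0 and 37.1 CPM in heated microspores, against 646, 537 and 631 CPM in unheated ones. Unheated levels of the lines overlapped, but late microspores differed. In late microspores K2 libraries had 1.89, 0 and 0 CPM, whereas 49CX libraries had 169, 222 and 167 CPM.

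The next question was where the members stood in late unicellular microspores, the starting material. Late libraries took no part in choosing the members, but heated and unheated libraries did, so that a member had to be high in unheated microspores and the counts in this paragraph and the next are descriptions. A level was called above another when the group means plus 20 CPM differed at least 2-fold. In K2, unheated microspores stood above late ones for 76 of the 105 members, below them for 1, and in between for 28. Among eligible genes 15.3% stood above. In 49CX, unheated microspores stood above late ones for 58 members, below for 1, and in between for 46, against 11.03% of eligible genes above. In both lines alike the unheated level stood above the late one for 53 members (50.5%), against 7.56% of eligible genes.

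Heated K2 microspores were within 2-fold of late ones for 68 members and below them for 37, and for none of the members were they above. Among eligible genes 84.2% were near, 9.35% below and 6.47% above. For 58 members (55.2%) the K2 pattern was an unheated level above the late one together with a heated level near the late one. Of eligible genes 12.1% had this pattern. A member with a late mean under 20 CPM could not be called below it, since 20 CPM was added to each side. In late K2 microspores 57 members (54.3%) had a mean of at least 20 CPM, against 82.6% of eligible genes. The numbers near the late level in K2 thus rest in part on the added CPM, and nothing is read from them. Every heated K2 library lay below every late one for 51 members (48.6%), against 24.1% of eligible genes. In 49CX, heated microspores were near late ones for 68 members, below for 18 and above for 19, where 82.6% of eligible genes were near, 7.99% below and 9.45% above. Being near the late level was thus no more frequent among members than among eligible genes. All 19 of those above were also above late microspores when unheated, with the heated level between the late and the unheated one. The rule fixes this, since H had to be at most -1 in 49CX, and nothing is read from it. Over all members the median level was 5.92 CPM in heated, 173 in unheated and 23.6 in late K2 microspores. It was 66.5, 200 and 65.8 CPM in heated, unheated and late 49CX microspores, where heated and late medians were about equal and the median log2 ratio of heated over late was -0.14. As a share of gene counts the members held 0.832% ± 0.0407 in late K2 and 2.42% ± 0.0580 in late 49CX microspores. The K2 heated share of 0.171% therefore lay below the late one, and the 49CX heated share of 1.82% lay below the late one by a smaller step.

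**Figure D3:**
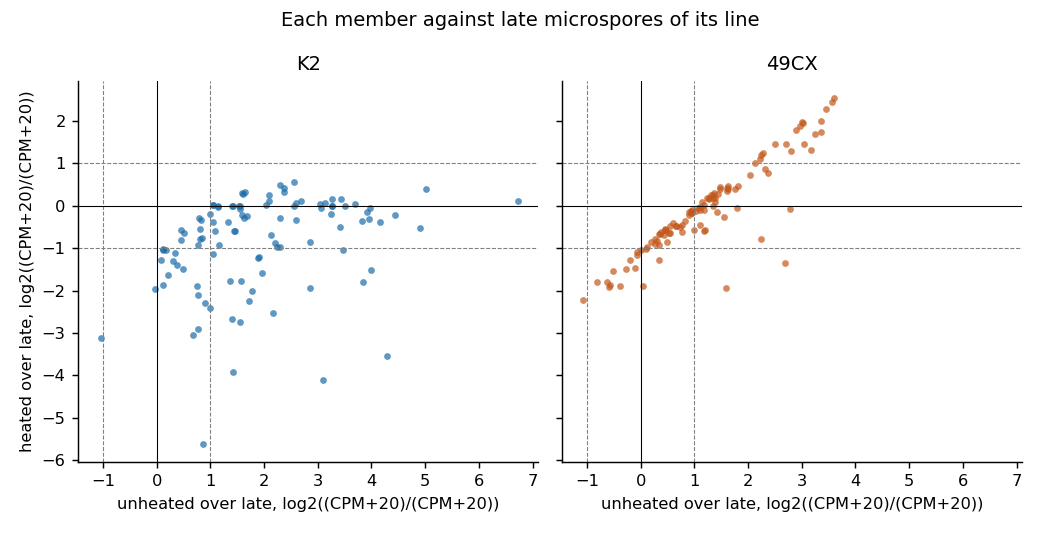
Each member (point) in K2 (left) and 49CX (right), with unheated over late microspores on the horizontal axis and heated over late on the vertical axis, both as log2 ratios of CPM plus 20; dashed lines mark 2-fold. In K2, 37 members lay below 2-fold down on the vertical axis and 0 above 2-fold up, and in 49CX 18 lay below and 19 above.

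Late microspores were then compared between the lines, which the rule did not use. The members were mostly lower in K2. Of the 100 members tested, 59 were lower and 5 higher in late K2 than in late 49CX microspores (edgeR quasi-likelihood test, adjusted p under 0.05 over 9376 genes). Among all genes tested 15.8% were lower and 16.6% higher, and among the tested eligible genes 19% were lower and 10.5% higher. The median log2 change was -1.80 over the members and -0.01 over all genes tested. The median level was 23.6 CPM in K2 and 65.8 CPM in 49CX, and 9 members had 0 counts in all 3 late K2 libraries.

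The member with the largest lower call was BraC01g047070.1, at -6.79 on the log2 scale (SE 0.58, adjusted p = 4.02e-24, edgeR). It rested on 1 count over the 3 late K2 libraries and 57 counts over the 3 late 49CX libraries. The pooled level was 176-fold lower in K2, with an exact 95% counting interval of 30.4-fold to 7083-fold. BraC06g003310.1, one of the most abundant members, was also lower, with 297, 245 and 221 CPM in late K2, against 3261, 3479 and 3312 CPM in late 49CX microspores (log2 change -3.63, SE 0.16, adjusted p = 1.44e-65, edgeR). Its heated level was 6.48, 0 and 4.32 CPM, against 5821, 4927 and 5239 CPM unheated, in K2. In 49CX it kept 1676, 1999 and 1936 CPM when heated, against 3968, 4271 and 4228 CPM unheated. The unheated K2 libraries of this gene all lay above the unheated 49CX libraries, while the late and heated K2 libraries lay below those of 49CX.

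BraC09g019380.1 had the largest higher call. It had 102, 87.7 and 36.9 CPM in late K2, against 8.91, 11.7 and 8.81 CPM in late 49CX microspores (log2 change 3.03, SE 0.66, adjusted p = 5.87e-05, edgeR). The groups did not overlap, but each late 49CX library held only 1 count, and the pooled ratio was 8.73-fold with a counting interval of 2.88-fold to 43.2-fold. Its heat values in K2 came from 10.8, 28.8 and 38.9 CPM heated, against 57.5, 75.1 and 131 CPM unheated. In 49CX they came from 13.6, 24.7 and 18.5 CPM heated, against 73.2, 106 and 62.7 CPM unheated.

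In leaf the members were low, and lower in K2 than in 49CX. Their share of gene counts was 0.175% ± 0.00359 in leaf of K2 and 0.267% ± 0.0377 in leaf of 49CX (n = 3 each, SD). The median member level was 0.438 CPM in K2 leaf and 6.31 CPM in 49CX leaf. Of the 105 members, 39 had 0 counts in all 3 K2 leaf libraries and 4 in all 3 49CX leaf libraries. Those are 37.1% and 3.81% of the members, against 5.73% and 1.26% of eligible genes. The K2 leaf libraries were the deeper ones, with 959801 ± 210190 gene counts against 425101 ± 183542 in 49CX leaf.

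Between leaves, 55 of the 100 members tested were lower and 5 higher in K2 than in 49CX (edgeR, adjusted p under 0.05). Among all genes tested 20.3% were lower and 18.5% higher, and among the tested eligible genes 21% were lower and 18.6% higher. The median log2 change was -2.82 over the members and -0.03 over all genes tested. Of these 100 members, 68 also passed the count filter when it was run on the late and leaf libraries alone, and 41 of those were lower and 4 higher. The others entered through heated or unheated microspores. Shares of all genes called with the late and leaf filter were not computed, so the shares above are no baseline for those 68. Members lower in K2 in late microspores and in leaf numbered 38, and 1 member was higher in each. This joint count was not made over all genes tested, so no excess is read from it. BraC06g003310.1 had 0 counts in K2 leaf, against 169, 216 and 177 CPM in 49CX leaf, where 245 reads were counted. It was at least 184-fold lower in K2 leaf, from a floor of 3 counts over the group (edgeR adjusted p = 9.78e-28). BraC04g034650.1 went the other way, with 11.7, 13.1 and 10.2 CPM in K2 leaf and 0 counts in 49CX leaf. It was at least 4.87-fold higher in K2 leaf (edgeR adjusted p = 0.000816).

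Against leaf of the same line, late microspores had the higher level of most members. In K2, 60 of 100 members were higher and 6 lower in late microspores than in leaf (edgeR, adjusted p under 0.05). Among all genes tested 25.5% were higher and 20.5% lower, and among the tested eligible genes 26.7% and 18.3%. In 49CX, 65 were higher and 4 lower, where 23.3% of all genes tested were higher and 19.2% lower, and 28.9% and 16% of the tested eligible genes. The number lower in 49CX was 2 without 49CX late replicate 3. In both lines alike 48 members were higher, a joint count that was not made over all genes tested. Here too the count filter let members enter through unheated microspores.

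Median log2 changes of late over leaf were 2.83 in K2 and 2.34 in 49CX over the members, and 0.09 and 0.30 over all genes tested. With scaling by library size alone the all-gene medians moved to 0.69 in K2 and 1.26 in 49CX, and the member medians to 3.39 and 3.30. The members thus stayed above the all-gene median by 2.03 or more on the log2 scale under each scaling. BraC10g021390.1 had the largest change in K2, with 1428, 1098 and 1268 CPM in late microspores and 0 counts in leaf. That is at least 1265-fold higher in late microspores (edgeR adjusted p = 6.97e-37). In 49CX it had 3582, 3327 and 2775 CPM in late microspores, against 61.0, 103 and 57.0 CPM in leaf (log2 change 4.43, SE 0.32, adjusted p = 1.58e-24, edgeR). In heated K2 microspores it had 12.97, 4.80 and 0 CPM, against 2382, 2236 and 2316 CPM in unheated ones, and in heated 49CX microspores 620, 623 and 769 CPM, against 1458, 1475 and 1659 CPM.

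In 49CX the largest higher call was BraC01g002490.1, with 116, 46.7 and 44.0 CPM in late microspores and 0 counts in leaf. It was at least 30.0-fold higher in late microspores (edgeR adjusted p = 1.88e-07). It also had 0 counts in K2 leaf, the embryos and pollen, and 56.7, 50.8 and 55.4 CPM in late K2 microspores. At this depth its reads were therefore detected in microspores alone among these libraries, where the heated means were 16.3 CPM in K2 and 10.7 CPM in 49CX, against unheated means of 60.6 and 42.1 CPM. Heated 49CX libraries, at 13.6, 18.5 and 0 CPM, overlapped the unheated ones, at 53.3, 14.5 and 58.5 CPM. In K2 heated and unheated libraries did not overlap.

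Few members were lower in late microspores than in leaf. BraC02g008450.1 had 1.89, 0 and 0 CPM in late K2 microspores, against 21.3, 24.96 and 8.48 CPM in K2 leaf (log2 change -4.27, SE 0.92, adjusted p = 4.07e-05, edgeR). It had 1 count over the 3 late libraries, and the pooled level was 16.4-fold lower, with a counting interval of 2.81-fold to 660-fold. In unheated K2 microspores it had 122.7, 72.3 and 142 CPM, well above late microspores and leaf, whereas heated ones had a mean of 2.16 CPM. In 49CX the largest lower call was BraC09g019380.1, with 8.91, 11.7 and 8.81 CPM in late microspores, against 65.7, 57.8 and 51.3 CPM in leaf (log2 change -3.49, SE 0.64, adjusted p = 2.73e-06, edgeR).

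Whether late over leaf differed between the lines was tested as an interaction. Of the 100 members tested, 24 had a higher and 9 a lower late-over-leaf ratio in K2 than in 49CX (edgeR interaction term, adjusted p under 0.05). Of all 9376 genes tested, 1606 (17.1%) had a higher and 920 (9.81%) a lower ratio.

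**Figure D4:**
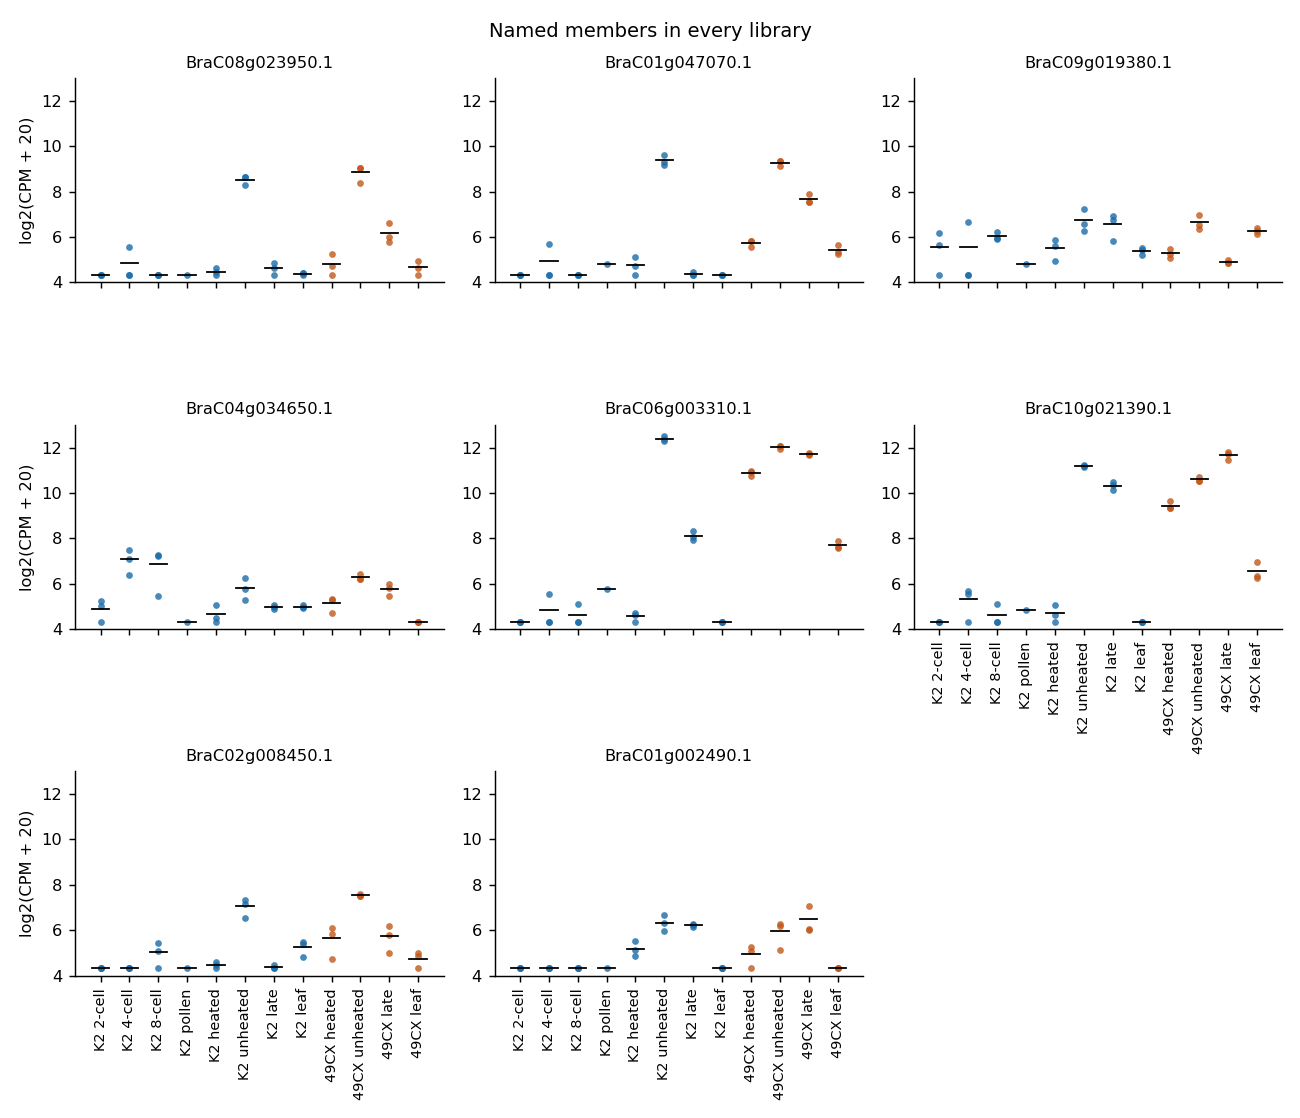
Level of 8 members (log2 of CPM plus 20, vertical axis) in every library (points) of the 12 groups, with the mean (line). BraC10g021390.1 and BraC06g003310.1 were near 0 CPM in heated K2 microspores and K2 leaf, against means of 2311 and 5329 CPM in unheated K2 microspores.

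Microspore-derived embryos held little of the members. Of the gene counts, 0.411% ± 0.213 belonged to members in 2-cell embryos, 0.605% ± 0.239 in 4-cell ones and 0.533% ± 0.188 in 8-cell ones (SD, n = 3 each), with the heated K2 microspores at 0.171% and the late ones at 0.832%. The share in embryos ranged from 0.266% to 0.877% over the 9 libraries, with the highest value in 4-cell replicate 1, a library of 8549 gene counts. A few members in single libraries carried much of these shares. The 3 members that led any embryo library, picked out after their values were seen, held 21.2% to 77.3% of the member counts of a library. A pair of pollen-class members among them had 227 and 208 counts in 2-cell replicate 2, against 1 and 1 in replicate 1, and 206 and 161 in 8-cell replicate 3, against 0 and 1 in replicate 1. The remaining one, of the embryo class, held 41 of the 75 member counts in 4-cell replicate 1. Without these 3 members the share was 0.228% ± 0.0487 at the 2-cell stage, 0.261% ± 0.122 at the 4-cell stage and 0.252% ± 0.0752 at the 8-cell stage. Of the members, 13 had 0 counts in all 9 embryo libraries, which is 12.4%, against 1.78% of eligible genes.

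Set against late K2 microspores, 40 of 100 members were lower and 7 higher in embryos (edgeR, adjusted p under 0.05). Among all genes tested 26.4% were lower and 8.68% higher, and among the tested eligible genes 24.7% and 6.21%. The median log2 change was -1.28 over the members and -0.53 over all genes tested. The count filter used the 18 microspore libraries, among them the unheated ones where the members were chosen to be high. With the filter on the libraries of this comparison only 29 members could be tested, of which 18 were lower and 4 higher. The share of all genes called with that filter was not computed. Embryo libraries were shallow and unequal in depth, and on simulated counts of the same depths most calls of this comparison were false. The direction of those false calls was not counted, so the split into lower and higher calls is not read further. The all-gene median was -1.15 with DESeq2's size factors, and the member median differed from the all-gene median by -0.66 to -0.75 under the scalings run. Without both embryo libraries under 10000 gene counts, 34 members were lower and 7 higher, and with 4-cell embryos alone 13 were lower and 4 higher. BraC10g021390.1 was the largest lower call, with 3 counts over the 9 embryo libraries and 1269 over the late libraries. The pooled level was 303-fold lower in embryos, with a counting interval of 103-fold to 1470-fold (edgeR adjusted p = 1.44e-18).

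Members were also sorted by tissue, from K2 libraries that the rule did not use. A member was placed in pollen, leaf or embryo when log2 of CPM plus 20 in that tissue was at least 1 above both others. Pollen took 16 members, embryo 8 and leaf 5, and 76 were placed in none. Those are 15.2%, 7.62% and 4.76% of the members, against 8.35%, 7.02% and 10.5% of eligible genes. The pollen class rests on 1 library.

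The 16 pollen members had a median H of -3.28 in K2 and -1.13 in 49CX, and 15 of them stood above late microspores in unheated K2 microspores. Their median level was 1.88 CPM in heated, 257 in unheated and 15.3 in late K2 microspores. In 49CX it was 186 CPM in heated, 499.5 in unheated and 94.8 in late microspores. Their pollen levels ran from 25.4 to 7708 CPM. As a whole the members held 3.06% of pollen gene counts (2.96% to 3.16%, exact Clopper-Pearson 95% interval). Of that share 89.8% came from 5 members, and 60 of the 105 members had 0 counts in pollen, against 51.8% of eligible genes. Those 5 had 947 to 7708 CPM in pollen, 1.44 to 6.48 CPM in heated and 71.3 to 3892 CPM in unheated K2 microspores.

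The 8 embryo members had a median H of -1.94 in K2 and -1.23 in 49CX. This class rests on means over shallow libraries and can come from a few reads. Among them, BraC07g037180.1 had 1, 0 and 1 counts in 2-cell and 0, 2 and 0 in 4-cell libraries. It had 0 counts in each 8-cell library. Its 1 count in 2-cell replicate 3 was 166 CPM. Their median level was 7.36 CPM in heated, 98.2 in unheated and 9.89 in late K2 microspores. The most abundant of them, chosen after its values were seen, had group means of 664 CPM (2-cell), 2695 CPM (4-cell) and 1798 CPM (8-cell). In microspores that member had 38.5 CPM in heated, 202 in unheated and 207 in late K2, and 42.9, 135 and 211 CPM in heated, unheated and late 49CX. The 5 leaf members had a median H of -1.60 in K2 and -1.10 in 49CX, with 41.3 CPM in heated, 167 in unheated and 151 in late K2 microspores. BraC04g034650.1 had its highest group means in 4-cell embryos, at 114 CPM, and 8-cell embryos, at 95.2 CPM, with 9.92 CPM in 2-cell embryos. In microspores it had 5.04 CPM in heated, 36.1 in unheated and 11.5 in late K2, and 15.05 CPM in heated, 58.0 in unheated and 34.3 in late 49CX. The counts behind the embryo means were 5, 9 and 22.

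The group with the highest mean was unheated 49CX microspores for 49 members, unheated K2 microspores for 38 and pollen for 8. Those are 46.7%, 36.2% and 7.62% of the members, against 10.9%, 14.3% and 6.99% of eligible genes. The rule favours the unheated groups, since a member had to be high there, and the pollen share was near that of eligible genes. By the number in the ID, the members were spread over all 10 series of IDs, with 7 to 17 in each. No members were in consecutive rows of the gene list, and 2 pairs lay within 5 rows of each other.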

How the data were processed

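The authors deposited, for each library, a table of raw counts per gene ID without normalization. Per the submitters' processing notes, the tools were Trim Galore, HISAT2, Picard and HTSeq. Versions, genome build, annotation and the strand setting of HTSeq are not stated in the labels. Libraries were strand-specific and low-input, per the labels' protocols. Without the strand setting, reads of overlapping and antisense genes cannot be assigned, and near-identical gene copies may share reads. Entries that name no gene, 53.4% to 85.3% of assignable reads lying in none, stayed out of library sizes. The members and lists were chosen with earlier results of these data known. CPM used library size. Genes were tested with edgeR 4.0.16 (R 4.3.3; TMM factors, robust quasi-likelihood fit, Benjamini-Hochberg adjustment, threshold 0.05) over the 9376 genes that passed filterByExpr on the 18 microspore libraries. Late K2 against 49CX used those 18 libraries, leaf and late over leaf the 12 leaf and late libraries, and embryos the 12 embryo and late K2 libraries, with no covariates. DESeq2 1.42.0 was an alternative. The fits were tested on simulated data. Named IDs were the 2 members with the most negative larger H and, per tested comparison, the member called higher and the one called lower with the largest change among those whose groups did not overlap; for embryos over late microspores no such member was called higher. These IDs are then described in further comparisons. K2 late replicates 2 and 3 were the closest pair (chi-square per degree of freedom 1.04 over 5483 genes) and stayed separate. Intervals (95%) and floors (3 counts) account for counting error alone; the reads carry no molecular identifiers, so several may come from 1 molecule.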

Additional observations from a re-analysis of the deposited data

Results flagged for a closer look

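For 5 of the 8 members named above, the ratio of late microspores to leaf differed between K2 and 49CX by a test of the difference itself (edgeR interaction term, adjusted over 9376 genes). Of all genes tested, 17.1% had a higher and 9.81% a lower ratio in K2. All 5 were named for large calls between late or leaf groups, which this test also compares. The choice thus favours such differences, and nothing is read from the number 5. For BraC10g021390.1 the log2 ratio was higher in K2 by 7.25 (adjusted p = 1.08e-11), and K2 leaf held 0 counts of it. For BraC09g019380.1 it was higher in K2 by 4.71 (adjusted p = 8.93e-08), with late above leaf in 3 of 3 K2 libraries and below leaf in 3 of 3 49CX libraries. For BraC02g008450.1 the difference was -5.32 (adjusted p = 0.000413), with 1 count over the late K2 libraries. For BraC06g003310.1 the log2 ratio was higher in K2 by 6.21 (adjusted p = 5.01e-09), with 0 counts in K2 leaf. For BraC04g034650.1 the difference was -7.02 (adjusted p = 0.000381), with 0 counts in 49CX leaf. Where a leaf group held 0 counts, the size of the fitted difference depends on the prior count and is no bound.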

How the results depend on the processing

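The number of genes passing the rule depended most on the added CPM: 308 genes passed with 5 CPM added and 46 with 50, and 149 passed with TMM-scaled CPM, which include all 105 members. Without replicate 1, 2 or 3 of the heated and unheated groups, 112 to 128 genes passed, of which 81 to 88 were members. Of the genes chosen without a replicate, 47 of 112, 53 of 128 and 57 of 128 also passed both thresholds in the replicate left out, and 107, 116 and 120 had an H below 0 in each line there. With 5 CPM added, 5 members had a heated level above late microspores in K2, against 0. Small counts of calls moved by more than 1.5 times as follows. With members chosen on TMM-scaled CPM, 8 were higher in K2 than in 49CX leaf, and 12 in K2 and 7 in 49CX were lower in late microspores than in leaf. With the filter applied to the libraries of each comparison, late below leaf had 3 calls in K2 and 2 in 49CX, and embryos had 4 higher and 18 lower of 29 members tested. Shares of all genes called were not computed under these alternatives. Late below leaf in 49CX had 2 calls with library size alone and 2 with no filter. Among alternatives chosen after seeing the data, 2-cell embryos alone gave 26 lower, and 4-cell embryos alone 13 lower and 4 higher. Leaving out 1 replicate at a time gave 51 to 59 members lower in late K2 than late 49CX, 43 to 54 lower in K2 than 49CX leaf, 54 to 59 higher in late than leaf in K2, 53 to 59 higher and 2 to 4 lower in 49CX, and 31 to 42 lower in embryos. No log2 change of a named ID changed direction under the alternatives run. Counts and shares were compared by size alone, and 204 of these values stayed within 1.5 times or 1 SD. The replicate numbers showed little sign of pairing the samples: correlations of the deviations of same-numbered samples ran from -0.12 to 0.055. The lowest was that of replicate 1 of K2 and 49CX leaf. With a replicate block the counts were 59 lower for late K2 over 49CX, 52 lower for leaf, 58 higher for late over leaf in K2 and 60 in 49CX, and 36 lower for embryos. The rule's limit of 200 members was not reached, so no fit without it was run, and 2 alternatives equal to the fit itself were not run: the filter on its own libraries for late K2 over 49CX, and the compared groups alone for embryos. Shallow embryo libraries, where 3 counts are 17.6 to 498 CPM, limit what could be detected there.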

Other observations

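The members' levels in 49CX leaf followed their levels in 49CX late microspores, with a Spearman rho of 0.63 across the 105 members, against 0.47 across the 6585 eligible genes. With 49CX unheated microspores rho was 0.53 over the members and 0.13 over eligible genes. In K2 leaf the values over the members were 0.48 with late and 0.18 with unheated microspores, and over eligible genes 0.64 and 0.26. The median member in 49CX leaf had 3.13% of its level in 49CX unheated microspores, and the median member in K2 leaf had 0.259% of its level in K2 unheated microspores. Genes are not independent, and all points share the same libraries.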
